A study of Mus musculus with 26 samples.

Results

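The mir-181 family comprises 6 precursor entries, mmu-mir-181a-1, mmu-mir-181a-2, mmu-mir-181b-1, mmu-mir-181b-2, mmu-mir-181c and mmu-mir-181d, out of 1054 miRNA entries in the small RNA table. Entries were taken by name, irrespective of their values, and each name matched 1 row. All 6 passed the filter on low counts, which left 463 entries for testing. Small RNA was sequenced from the ventral (vHC) and dorsal (dHC) hippocampus of male C57BL/6J mice aged 2 to 3 months, with tissue of both hemispheres. Control mice stayed in their homecage, and swim mice were killed 45 mins after the start of a 6 min swim in water of 18 °C. There were 8 control vHC, 6 swim vHC, 6 control dHC and 6 swim dHC libraries, 26 in all, and the labels place them in 3 dated blocks of 10, 8 and 8 libraries that each hold all 4 groups. The labels do not say which libraries came from the same mouse, so p-values measure the spread between libraries.

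miRNAs are cut from hairpin precursors, and the mature strand guides Argonaute proteins to mRNAs, mainly through pairing of its seed, bases 2 to 8, with the target. The miR-181 family is best known from lymphocytes, where miR-181a tunes signalling of the T cell receptor, and it is also abundant in brain, where it has been studied for control of AMPA-type glutamate receptor subunits in neurons. The family lies in 3 genomic clusters, each with a pair of hairpins. Since the table gives precursors, it does not separate the 5p from the 3p arm.

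All mature 5p strands of the family carry the same seed. Of 1738 mature entries in the RefSeq sequences (GRCm38.p6), 6 hold this seed, all of them from this family, and they spell 4 distinct sequences. These are shown, with the seed in capitals, because they decide how far reads can tell the members apart.
miR-181a-5p (mir-181a-1 and mir-181a-2): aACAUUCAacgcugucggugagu
miR-181c-5p (mir-181c): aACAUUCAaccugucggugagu
miR-181b-5p (mir-181b-1 and mir-181b-2): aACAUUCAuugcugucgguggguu
miR-181d-5p (mir-181d): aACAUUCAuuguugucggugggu
Counted from 1 at the 5′ end, miR-181a-5p and miR-181b-5p differ at A9U, C10U and A21G and by 1 base at the 3′ end. miR-181b-5p and miR-181d-5p differ at C12U alone apart from the last base. miR-181c-5p is miR-181a-5p with 1 internal base missing, with 0 mismatches in the alignment. Thus the 5p strands of mir-181a-1 and mir-181a-2 are identical, as are those of mir-181b-1 and mir-181b-2, and a read of such a strand cannot be placed at either locus.

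The 3p strands, in contrast, differ between the copies. They are shown because they are the mature part that can tell the chromosome 1 copy from the chromosome 2 copy.
miR-181a-1-3p: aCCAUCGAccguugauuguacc
miR-181a-2-3p: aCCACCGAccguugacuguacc
miR-181b-1-3p: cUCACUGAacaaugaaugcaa
miR-181b-2-3p: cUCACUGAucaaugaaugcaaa
The copies of miR-181a-3p differ at U5C, within the seed, and at U16C. The copies of miR-181b-3p share their seed and differ at A9U and by 1 base at the 3′ end. Across the family the 6 3p strands are 6 distinct sequences.

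In GENCODE vM21 (GRCm38), cluster 1 holds mir-181a-1 at chr1:137966455-137966541 and mir-181b-1 at chr1:137966639-137966718, both on the plus strand and 97 bases apart. Both lie in an intron of the non-coding gene Gm4258 on the same strand, and mir-181b-1 lies wholly, and mir-181a-1 in part, in an exon of the lincRNA A430106G13Rik. Cluster 2 holds mir-181a-2 at chr2:38852735-38852810 and mir-181b-2 at chr2:38853830-38853918, 1019 bases apart on the plus strand, in an intron of Nr6a1, a nuclear receptor gene on the opposite strand. Cluster 3 holds mir-181c at chr8:84178873-84178961 and mir-181d at chr8:84178716-84178787, 85 bases apart on the minus strand, in an intron of Nanos3, an RNA-binding protein gene on the same strand.

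Libraries held from 465387 to 4819724 miRNA counts. Levels are given as normalised CPM, counts per 1000000 miRNA counts after TMM scaling, without a length correction because a read covers a whole mature strand. Over all tested entries, control vHC library 1 was the only library of block 1 that was nearer to another block, with a root mean square log2 distance of 0.71 to the mean of the other libraries of block 1 and of 0.56 to that of block 2. Blocks 2 and 3 were not separate by this measure, since 7 of 8 libraries of block 2 were nearest to block 3 and 2 of 8 of block 3 were nearest to block 2. Swim dHC library 6, at 0.74, and control dHC library 24, at 0.90, were farther from their own block than library 1. Values of mir-181c that library 1 moves are given with and without it.

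The family made up 2.28% ± 0.351 (SD, n = 26) of the miRNA counts, with a range from 1.41% to 3.02%. mir-181a-1 had 8114 ± 1096 CPM (SD, n = 26) and mir-181a-2 had 7859 ± 1100 CPM, ranks 41 and 43 of the 463 entries by mean level. mir-181b-2 had 2044 ± 263 CPM and mir-181b-1 had 1962 ± 262 CPM, ranks 91 and 94. mir-181d had 1561 ± 202 CPM at rank 105, and mir-181c had 1163 ± 502 CPM at rank 118. The lowest mir-181a-2 level, 4980 CPM, was above the highest mir-181b-2 level, 2581 CPM, whereas all other neighbours in this order overlapped between libraries, and the copies of a pair differed by less than the SD. Within libraries, however, the order mir-181a-1, mir-181a-2, mir-181b-2, mir-181b-1, mir-181d held in 26 of 26. mir-181c was below mir-181d in 22 of 26 libraries, and the 4 exceptions were all in block 1.

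**Figure D1:**
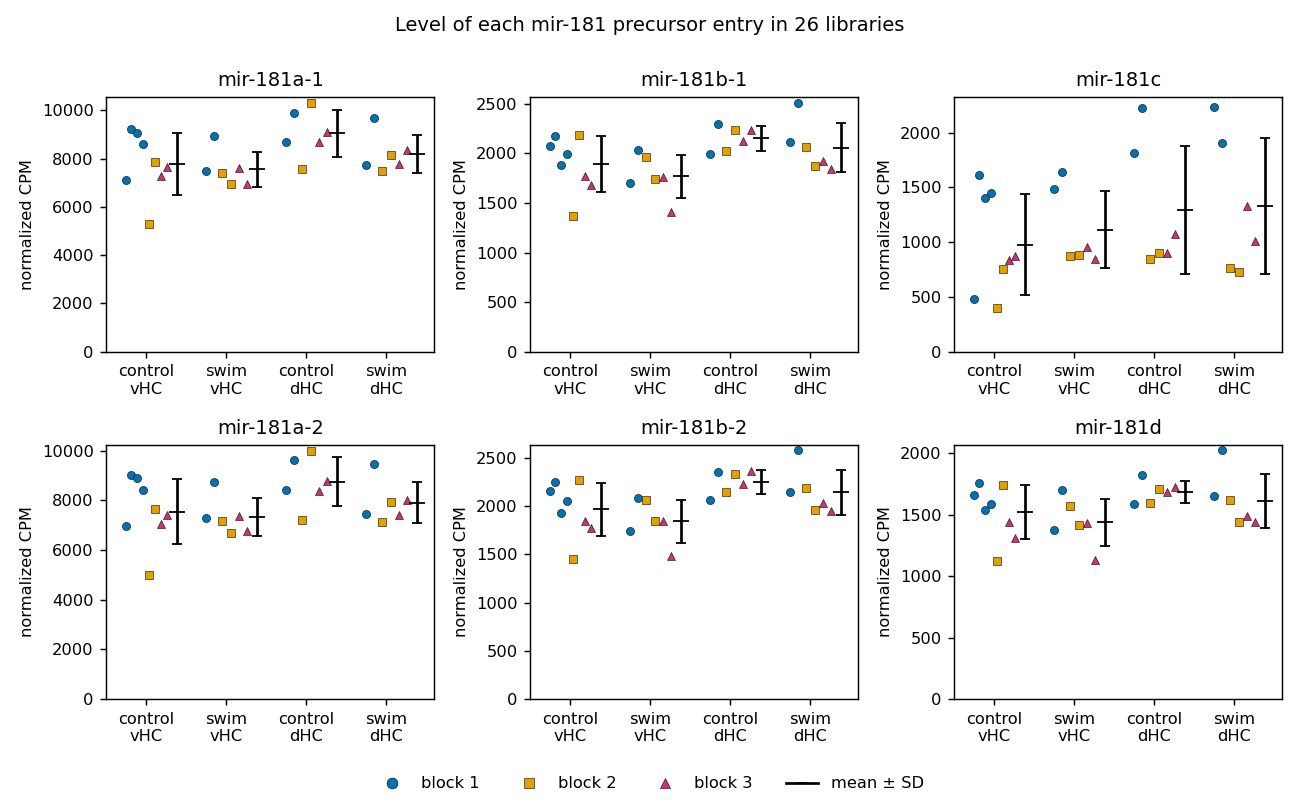
Normalised CPM of each of the 6 precursor entries (y axes, linear from 0) in the 4 groups (x axes), with 1 point per library, marked by block, and the group mean ± SD in black. mir-181c separates by block, with all block 1 libraries but 1 at or above 1405 CPM and all others at or below 1332 CPM, whereas the other members overlap between blocks.

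Copies on different chromosomes had nearly the same counts in every library. mir-181a-1 exceeded mir-181a-2 by 2.09% to 5.62% of its own count, and mir-181b-2 exceeded mir-181b-1 by 1.14% to 5.68%. mir-181d was between 76.4% and 83.7% of mir-181b-1. These ratios varied far less than the levels, since the highest mir-181a-1 level was 10299 CPM and the lowest 5278 CPM. Of the 156 member values, 126 were not whole numbers. Within 0.006 of a count, the values of mir-181b-1 and mir-181b-2 were multiples of 1/12 in 26 of 26 libraries and those of mir-181d multiples of 1/6 in 26 of 26. mir-181a-1 and mir-181a-2 were multiples of 1/4 in 25 of 26 libraries, and mir-181c was a multiple of 1/2 in 23 of 26. How the quantification divided sequences among entries is not given in the sources used here. The levels of clusters 1 and 2, and part of that of mir-181d, can therefore not be taken as separate measurements. The values of mir-181c were whole in 10 of 26 libraries, so part of its level may be shared with other entries too.

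Of the family's counts, cluster 1 held 44.4% ± 0.821 (SD, n = 26), cluster 2 held 43.7% ± 0.828 and cluster 3 held 11.9% ± 1.63. Both mir-181a entries together held 70.4% ± 1.94, and mir-181b-1, mir-181b-2 and mir-181d together held 24.6% ± 1.92. mir-181c held 5.01% ± 1.76 and was the most variable member relative to its level. Its share was lowest, 2.36%, in control vHC library 1 and highest, 9.56%, in swim dHC library 6.

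**Figure D2:**
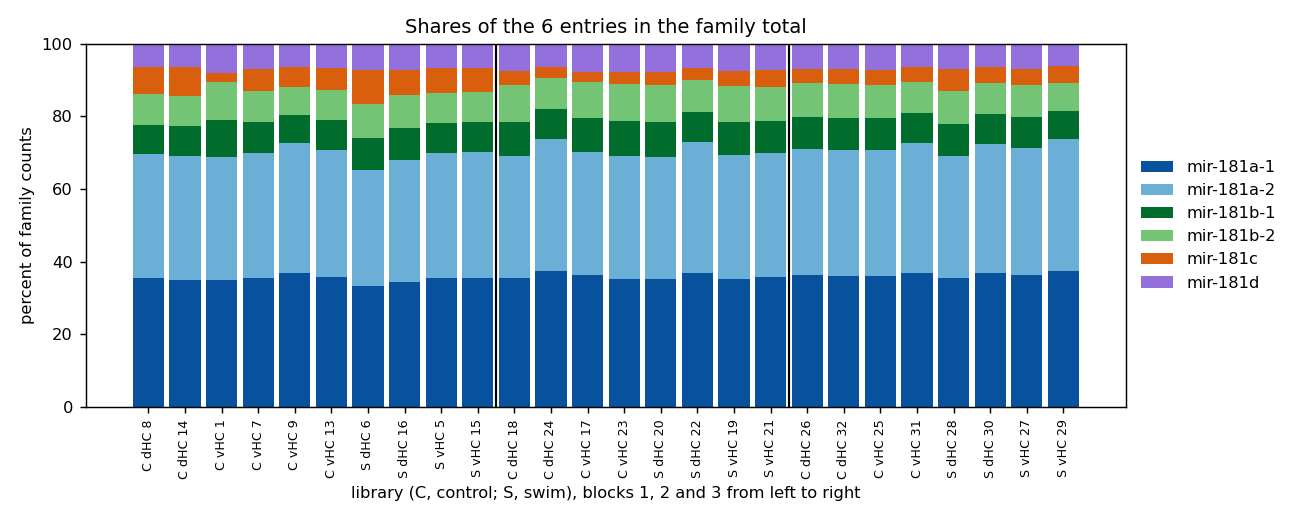
Stacked bars of the share of each of the 6 entries in the family's counts (y axis, percent) for each of the 26 libraries (x axis), with black lines between blocks 1, 2 and 3. The mir-181a entries hold between 65.1% and 73.8% in every library. The mir-181c segment is mostly widest in block 1, except for control vHC library 1 with 2.36%. Swim dHC library 28 of block 3, with 6.06%, exceeds control vHC libraries 9 (5.69%) and 13 (6.01%) of block 1.

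The study's question for these data was whether miRNAs changed after acute stress. No member passed the test. With stress and its interaction with region dropped together, 0 of 6 members passed the threshold of 0.05 (edgeR quasi-likelihood test, Benjamini-Hochberg adjusted over 463 entries), against a background of 0% of all entries, and the members' adjusted p was between 0.858 and 0.933. Before adjustment 16 entries of 463 and 0 members had a p under 0.05, and DESeq2 called 0 entries. Within vHC, within dHC and for the interaction, the background was likewise 0%, with 34, 17 and 23 entries and 0 members at an unadjusted p under 0.05. DESeq2 again called 0 in each of the 3.

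In vHC, mir-181a-1 was between 5278 and 9217 CPM in control (median 7768) and between 6948 and 8947 CPM in swim libraries (median 7457), and the groups overlapped. The log2 fold change was -0.01 (SE 0.08, edgeR adjusted p = 0.993), a fold of 0.992 with a 95% interval from 0.882 to 1.12. The direction of this value turns with the normalisation. mir-181a-2 had a log2 fold change of -0.01, mir-181b-1 of -0.08, mir-181b-2 of -0.07 and mir-181d of -0.06, with SEs between 0.086 and 0.091.

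mir-181c had the largest stress value of the family in vHC. It was between 395 and 1616 CPM in control (median 857) and between 844 and 1642 CPM in swim libraries (median 918), with a log2 fold change of 0.21 (SE 0.17, edgeR adjusted p = 0.696). The 95% interval of the fold was 0.910 to 1.48. The lowest 2 control values belonged to libraries 17 and 1, and without library 1 the log2 fold change was 0.14 (SE 0.15, edgeR adjusted p = 0.934). With any 1 library left out it was between 0.05 (without swim vHC library 15) and 0.29 (without swim vHC library 19).

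In dHC, all groups overlapped as well. mir-181a-1 was between 7562 and 10299 CPM in control (median 8913) and between 7479 and 9700 CPM in swim libraries (median 7960), with a log2 fold change of -0.11 (SE 0.09, edgeR adjusted p = 0.982) and a fold of 0.927 (95% interval 0.817 to 1.05). mir-181a-2 had -0.11, mir-181b-1 -0.05, mir-181b-2 -0.05 and mir-181d -0.05. mir-181c had 0.07 (SE 0.18), with 848 to 2228 CPM in control and 729 to 2233 CPM in swim libraries. The interaction of stress with region was between -0.15 (mir-181c, SE 0.25) and 0.03 (mir-181b-1, SE 0.13) on the log2 scale, with adjusted p-values of 0.954 to 0.997 in edgeR.

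The second comparison was between the regions, at baseline in control mice and again in swim mice. Point estimates of all 6 members were higher in dHC in both, under every alternative run and with any library left out, but only 1 of these tests passed. In control mice mir-181c was higher in dHC, with a log2 fold change of 0.53 (SE 0.18, edgeR adjusted p = 0.036), a fold of 1.44 (95% interval 1.11 to 1.86). This is 1 of 6 members, against 22.5% of all entries, with 7.78% higher and 14.7% lower in dHC, so that the number of calls does not set the family apart. The median log2 difference was 0.24 over the members and 0.005 over all entries. The copies of mir-181a are not separate measurements, nor are those of mir-181b, and mir-181d is not fully separate from mir-181b. Part of the mir-181c level may be shared as well, since its values were not all whole. The shared direction and the median of the members therefore do not rest on 6 separate measurements. In bulk tissue, more cells that hold a miRNA and more of it per cell cannot be told apart.

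For mir-181c, control dHC libraries had 1810 and 2228 CPM in block 1, 848 and 901 in block 2, and 904 and 1074 in block 3. Control vHC libraries had 483, 1405, 1450 and 1616 CPM in block 1, 395 and 756 in block 2, and 840 and 874 in block 3. Within each block, every control dHC library lay above every control vHC library. Over all blocks the groups overlapped. Without library 1 the log2 difference was 0.42 (SE 0.12, edgeR adjusted p = 0.012). The log2 difference was 0.48 (edgeR adjusted p = 0.079) when control dHC library 14 was left out, 0.46 (0.058) for control vHC library 17 and 0.54 (0.050, not under the threshold) for control dHC library 18. Leaving out any of these 3 thus lost the call, while the difference moved by less than its SE. With the 2 surrogate variables in place of block the adjusted p was 0.365, with a log2 difference of 0.66, and with neither it was 0.457.

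In swim mice mir-181c did not pass the threshold, with a log2 difference of 0.18 (SE 0.19, edgeR adjusted p = 0.563). Swim dHC had 1908 and 2233 CPM in block 1, 729 and 760 in block 2, and 1012 and 1332 in block 3. Swim vHC had 1487 and 1642, 878 and 882, and 844 and 954 CPM in the same blocks. In blocks 1 and 3 the dHC values were above the vHC values, and in block 2 they were below.

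The other members did not pass in control mice. mir-181a-1 was between 5278 and 9217 CPM in control vHC and between 7562 and 10299 CPM in control dHC. Its log2 difference was 0.26 (SE 0.10, edgeR adjusted p = 0.055), close to the threshold. mir-181a-2 had 0.25 (edgeR adjusted p = 0.068), mir-181b-1 0.22 (0.099), mir-181b-2 0.22 (0.098) and mir-181d 0.19 (0.156). Within blocks, the mean log2 difference of each of these 5 was above 0 in 3 of 3 blocks, between 0.06 (mir-181d, block 1) and 0.46 (mir-181a-2, block 2). The block 2 value includes control dHC library 24, the shallowest, with a TMM factor of 0.749. There mir-181a-2 had its highest level, 9992 CPM, but 0.749% of the miRNA counts. In control vHC library 23 it had 7643 CPM and 0.776%. These members are not all separate measurements, as stated above. How many members passed depended on the scaling. It was 5 with the size factors of DESeq2 in edgeR, against 28.1% of all entries, and 5 with DESeq2 itself, against 28.7% (all but mir-181d in each). It was 3 with TMMwsp (mir-181a-1, mir-181a-2 and mir-181c), against 27.4%. With these 3 scalings the median of all entries moved to between 0.06 and 0.07. With surrogate variables in place of block 3 members passed (mir-181a-1, mir-181a-2 and mir-181d), against 16.8%, and with neither 0 passed, against 14.5%. The second surrogate variable shared 91.1% of its variance with region, so that fit does not cleanly separate the 2.

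In swim mice 0 of 6 members passed, against 20.3% of all entries, with 150 entries and 2 members at an unadjusted p under 0.05. DESeq2 called 104 entries, or 22.5%, and 0 members. The number of members was also 0 with the size factors of DESeq2 in edgeR, against 21% of all entries, with TMMwsp, against 21.4%, and with neither block nor surrogate variables, against 12.1%. With surrogate variables in place of block it was 2 (mir-181a-1 and mir-181a-2), against 12.7%. mir-181b-1 and mir-181b-2 had the largest values, 0.22 each (SE 0.10, edgeR adjusted p = 0.141 and 0.139). mir-181a-1 had 0.12, mir-181a-2 0.11 and mir-181d 0.16. Within blocks, the values of these 5 were above 0 in 3 of 3 blocks, though they are not all separate measurements. The interaction given above was fitted with surrogate variables rather than block, so its values are not the differences of these regional values. For the interaction 0 members passed, also under all 9 alternatives, which include block in place of surrogate variables.

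**Figure D3:**
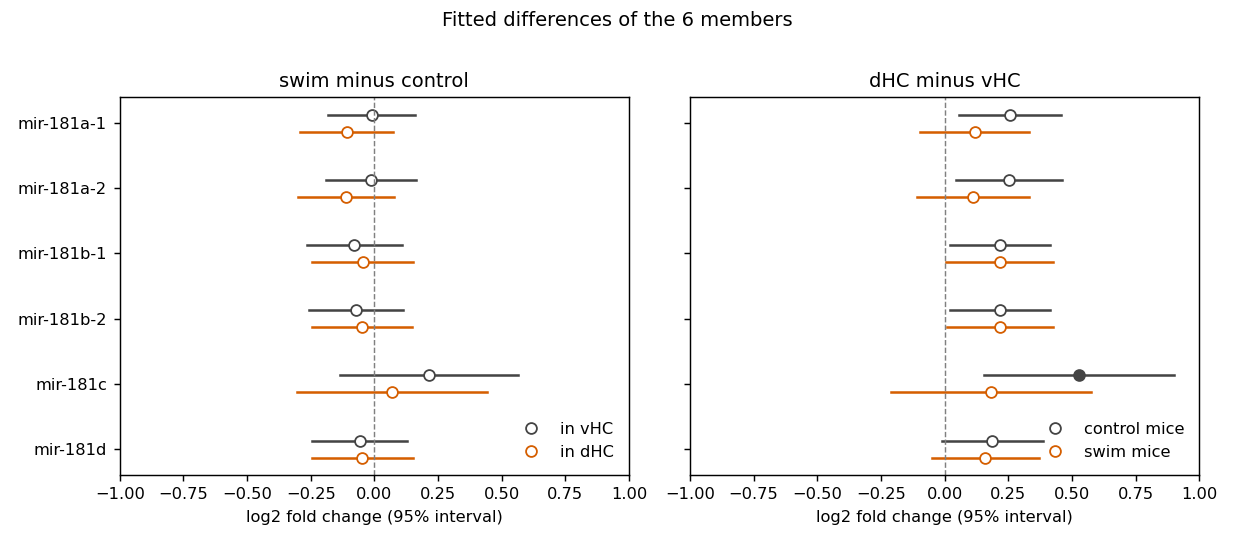
Fitted log2 fold change (x axes) of each member (y axis) with its 95% interval, for swim minus control in vHC and dHC (left) and for dHC minus vHC in control and swim mice (right). Open circles did not pass an adjusted p of 0.05, and the filled circle, mir-181c in control mice at 0.53, did.

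Some of 6 lists of cell type miRNAs held entries that differed between regions. Over all entries, 7.78% passed as higher and 14.7% as lower in control dHC, and 7.56% and 12.7% in swim dHC. Of the oligodendrocyte entries, mir-219a-1, mir-219a-2 and mir-338, 3 of 3 were higher in dHC in control and in swim mice, with a median log2 difference of 0.50 and 0.70. Their summed level was 3321 to 4939 CPM in control vHC and 4329 to 7617 CPM in control dHC. Of the choroid plexus and ciliated cell entries, 5 of 8 were higher in control dHC (mir-204, mir-211, mir-449a, mir-34b and mir-34c) and 3 lower (mir-200a, mir-200b and mir-429). In swim dHC 2 of these 8 were higher and 3 lower. Their summed level was 2600 to 3681 CPM in control vHC and 3203 to 6234 CPM in control dHC. Of the neuronal entries, such as mir-124-1 and mir-128-1, 0 of 14 passed in control mice and 2 were higher in swim mice. Among lymphoid and myeloid entries 0 of 6 passed in either, and among endothelial and mural entries 0 of the 3 tested. Of the erythroid entries 2 of 4 were lower in control dHC and 1 in swim dHC. No tested entry of these lists was at 0 in every library, and the part of these cells in the regional differences of mir-181 was not tested. For stress, 0 entries of these 6 lists passed in vHC or dHC.

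More entries differed between blocks than between stress groups or regions, and among the members this concerned mir-181c. In the test of block, 1 of 6 members passed, mir-181c with an edgeR adjusted p of 4.29e-06, against 53.1% of all entries. It was lower in block 2 than in block 1 by a log2 difference of -1.13 (SE 0.16, edgeR adjusted p = 3.34e-06), a fold of 0.456 (95% interval 0.363 to 0.572), and in block 3 by -0.77 (SE 0.16, edgeR adjusted p = 0.000274). Between blocks 3 and 2 the difference of 0.36 (SE 0.17) had an edgeR adjusted p of 0.422, and 0% of all entries were higher and 0% lower. The 10 libraries of block 1 had 483 to 2233 CPM (median 1629), the 8 of block 2 had 395 to 901 CPM (median 804), and the 8 of block 3 had 840 to 1332 CPM (median 929). Apart from library 1 at 483 CPM, every library of block 1 was above every library of blocks 2 and 3. Without library 1 the differences were -1.16 (SE 0.11) and -0.81 (SE 0.11), with edgeR adjusted p-values of 2.56e-09 and 7.99e-07.

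In the single contrasts, 3 of 6 members were lower in block 2 than in block 1 (mir-181c, mir-181a-1 and mir-181a-2), against 29.8% of all entries, and 2 of 6 lower in block 3 (mir-181c and mir-181d), against 30%. The mir-181a copies are not separate measurements, so these counts do not rest on 6 of them. In the test of block, mir-181a-1, mir-181a-2 and mir-181d did not pass (edgeR adjusted p = 0.094, 0.076 and 0.082). mir-181a-1 had -0.21 (edgeR adjusted p = 0.046), mir-181a-2 -0.23 (0.036) and, in block 3, mir-181d -0.22 (0.039). Without library 1 these 3 values were -0.17, -0.19 and -0.16 and no longer passed (edgeR adjusted p = 0.126, 0.0997 and 0.143), while both calls of mir-181c held. Of the 14 neuronal entries, 4 were lower and 1 higher in block 2 than in block 1. In block 3, 7 were lower and 0 higher. Over all entries, 29.8% and 30% were lower and 22.7% and 22% higher. Lymphoid and myeloid entries had 2 and 3 of 6 lower, with 0 higher. Choroid plexus and ciliated cell entries had 2 of 8 higher and 1 lower in each block. Erythroid entries had 2 of 4 higher and 1 lower in block 2, and 1 lower in block 3. Oligodendrocyte entries had 1 of 3 higher in each, and endothelial and mural entries 1 of 3 in block 3. The study's methods mention batches of library preparation, and the labels do not say what a block is, so the source of these differences was not tested.

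Within the family, mir-181c shifted against its near-identical relative. The log2 ratio of mir-181c to the sum of both mir-181a entries was between -3.68 and -2.77 in 9 libraries of block 1 and -4.87 in library 1. It was between -4.70 and -3.95 in block 2 and between -4.24 and -3.51 in block 3. Only swim dHC library 28, at -3.51, brought blocks 3 and 1 into overlap apart from library 1. The log2 ratio of mir-181d, which lies in the same intron as mir-181c, to the sum of both mir-181b entries stayed between -1.42 and -1.28 in all 26 libraries. Part of the mir-181d level cannot be taken as measured apart from mir-181b, so this ratio does not show whether mir-181d shifted with mir-181c.

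**Figure D4:**
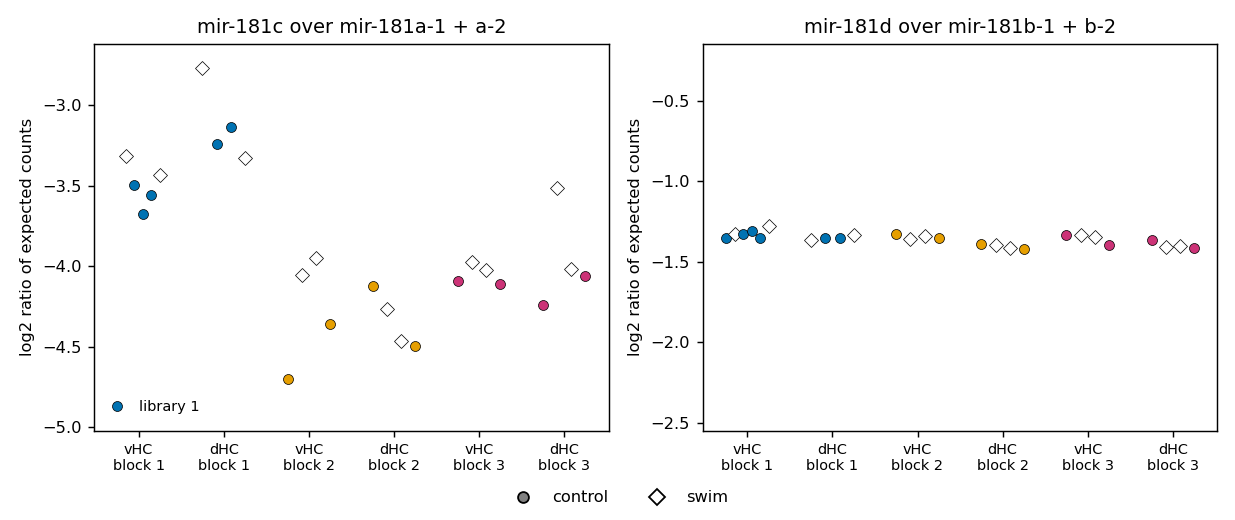
Log2 ratio of expected counts (y axes, same span of values) of mir-181c to both mir-181a entries (left) and of mir-181d to both mir-181b entries (right), by block and region (x axes), with filled circles for control and open diamonds for swim libraries. The mir-181c ratio is mostly highest in block 1, apart from library 1 at -4.87, and the mir-181d ratio stays between -1.42 and -1.28. Swim dHC library 28 of block 3, at -3.51, lies above control vHC libraries 9 (-3.68) and 13 (-3.56) of block 1 for mir-181c. The levels of mir-181d and mir-181b are not fully separate measurements.

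The 3 clusters were compared through the log2 ratios of their summed counts, with 12 exact permutation tests (two-sided, labels exchanged within block, 3 ratios in 4 comparisons) and adjustment over the 12. None passed after adjustment. Cluster 1 to cluster 2 was 0.03 ± 0.0077 (SD, n = 26), and its differences between groups were at most 0.0046 (swim mice, dHC minus vHC). Since clusters 1 and 2 are not separate measurements, the tests of this ratio cannot decide whether the clusters differ. For the ratio of cluster 1 to cluster 3, mean values were 1.97 ± 0.141 (SD, n = 8) in control vHC, 1.88 ± 0.154 (n = 6) in swim vHC, 1.93 ± 0.258 (n = 6) in control dHC and 1.84 ± 0.317 (n = 6) in swim dHC. The lowest p was that of stress in vHC, where the block-adjusted ratio of cluster 1 to cluster 3 was lower in swim mice by a log2 difference of -0.12 (SE 0.06, exact permutation p = 0.041, adjusted 0.244). Within blocks 1, 2 and 3 it was -0.19, -0.14 and -0.02, and without library 1 the difference was -0.09 (exact permutation, adjusted p = 0.217). In dHC the stress difference of this ratio was -0.09 (SE 0.08, exact permutation p = 0.306, adjusted 0.571). Cluster 2 to cluster 3 gave -0.12 with the same p, as it shares its denominator and nearly all of its numerator's pattern.

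Between regions, cluster 1 to cluster 3 differed between dHC and vHC by -0.09 (SE 0.08, exact permutation p = 0.239, adjusted 0.571) in control mice and by -0.05 (SE 0.09, exact permutation p = 0.639, adjusted 0.697) in swim mice. Within blocks 1, 2 and 3 the differences were -0.27, 0.05 and -0.00021 for control mice and -0.21, 0.18 and -0.11 for swim mice, so that the direction differed between blocks. The smallest p that these tests can give is 0.00185 in control mice and 0.00926 in swim mice.

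A further 20 exact permutation tests on ratios between single members, added after the counts had been seen, also gave no adjusted p under 0.05. Those between copies cannot decide whether the loci differ, because the copies are not separate measurements. The smallest p belonged to mir-181d over both mir-181b entries in swim mice, where the log2 ratio was -1.33 ± 0.0285 (SD, n = 6) in vHC and -1.39 ± 0.0318 (n = 6) in dHC. The difference of -0.06 (SE 0.01) had an exact permutation p of 0.00926, the smallest the design allows, and an adjusted p of 0.185. In control mice it was -0.03 (exact permutation p = 0.052, adjusted 0.346). For mir-181c over both mir-181a entries the stress difference in vHC was 0.40 (SE 0.21, exact permutation p = 0.052, adjusted 0.346) and the regional difference in control mice 0.34 (SE 0.23, exact permutation p = 0.133, adjusted 0.635). Without library 1 both differences were smaller, and so were their adjusted p-values. The differences were then 0.27 (exact permutation, adjusted p = 0.056) and 0.20 (adjusted 0.375).

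Among the 457 other entries tested, likeness was measured by the SD, over 26 libraries, of the log2 ratio of an entry to the cluster sum. For clusters 1 and 2 the smallest SDs were those of mir-132 (0.16 for each), an activity-regulated neuronal miRNA, mir-26b (0.18 for each) and mir-30a (0.20 and 0.21), against a median of 0.47 over all other entries. For cluster 3 they were mir-1843b (0.21), mir-1843a (0.21) and mir-340 (0.22), against a median of 0.53. Between clusters 1 and 2, which are not separate measurements, the SD was 0.0077, and between cluster 3 and either of them 0.22. By this measure the entries most like cluster 3 were as close to it as clusters 1 and 2 were. All these points share libraries, depth and blocks.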

How the data were processed

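Small RNA libraries (26, of 4 groups set by the labels' region and condition) were analysed. Per the study's methods, cutadapt removed adapters, reads alike in sequence and molecular tag were merged, and Sports assigned them to annotated small RNAs. The table that the authors deposited holds expected counts without normalisation, of which 29.5% were not whole. GRCm38 is named in the submitters' processing notes. The table had 0 columns without a sample and 0 pairs of identical columns.

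Expected counts were rounded, where the design had assumed counts. Entries were filtered with filterByExpr (minimum count 10, total 15), scaled by TMM over miRNA counts and tested with the quasi-likelihood F test of edgeR 4.0.16 (R 4.3.3) over all 463 entries. In stress tests the model had terms for region, stress and the interaction, plus 2 surrogate variables (sva 3.50.0). Region and block tests had block in place of the latter. Adjustment was Benjamini-Hochberg with a threshold of 0.05. SEs and 95% intervals came from the quasi-likelihood variances. Cluster ratios were compared by exact permutation within block in Python 3.11.15. Tests were checked on simulated data.

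The members, clusters and cell type lists were chosen with earlier results of these data known. Named were the 6 members, the 3 entries most like each cluster (0.5 added to counts) and listed entries. Alternatives changed scaling, library size, tool (DESeq2 1.42.0), filter, covariates, handling of copies, pairing, permutation scheme and libraries used. The 465387 to 4819724 miRNA counts per library set the precision, which SEs express, and intervals cover these libraries only.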

Additional observations from a re-analysis of the deposited data

Results flagged for a closer look

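In 60 groups of values (each member's level, each ratio and the family's share, in each of the 4 groups of 6 or 8 libraries), 6 held a library far from the others, where about 1 in 20 would by chance and where many of these values share the same counts. In swim vHC, library 15 had the highest mir-181a-1 level, 8947 CPM, with the next at 7604 CPM, and likewise the highest mir-181a-2 level, 8746 CPM, with the next at 7358 CPM. In swim dHC, library 16 had the highest mir-181d level, 2025 CPM, with the next at 1654 CPM. In control vHC, library 17 had the highest log2 ratio of mir-181a-1 to mir-181a-2, 0.084 against a next value of 0.047, and hence of cluster 1 to cluster 2, 0.048 against 0.025. In control dHC, library 18 had the highest ratio of cluster 1 to cluster 2, 0.032 against 0.027.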

How the results depend on the processing

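Of 345 results under alternatives other than leaving out each library in turn, 304 kept their direction and their side of the threshold or moved little. The exceptions follow or, for single members' regional calls, stand in the report. The number of members passing for region in control mice was 5 with DESeq2 size factors (28.1% of all entries) and with DESeq2 (28.7%), 3 with TMMwsp (27.4%) and with surrogate variables in place of block (16.8%), and 0 with neither (14.5%). In swim mice it was 2 with surrogate variables (12.7%), which moved the median log2 difference of all entries to -0.22 in control and -0.19 in swim mice, and of which the second shared 91.1% of its variance with region. Stress in vHC reversed for mir-181a-1 and mir-181a-2 with DESeq2 size factors (0.015 and 0.013), TMMwsp (0.035 and 0.033) and DESeq2 (0.015 and 0.013). With mir-181b-1, mir-181b-2 and mir-181d alone, the ratios to cluster 3 reversed for region in control mice (0.032 for cluster 1 and 0.033 for cluster 2), in swim mice (0.056 and 0.056) and for stress in dHC (0.0040 and 0.0034). Cluster 1 to cluster 2 reversed there for region in control (-0.00010) and swim mice (-0.00017), and with the mir-181a members alone for stress in vHC (-0.0011). The causes were not tested.

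With each library left out in turn, 0 to 3 members passed for region in control mice (0 without control dHC 14 or control vHC 17, 3 without swim dHC 6, swim dHC 22 or control vHC 23) and 1 to 3 for block (3 without swim dHC 6). With all libraries it was 1 member for each, against 22.5% of all entries for region and 53.1% for block. Stress in vHC lay between -0.051 and 0.060 for mir-181a-1, -0.057 and 0.059 for mir-181a-2, -0.11 and 0.012 for mir-181b-1, -0.10 and 0.017 for mir-181b-2, and -0.086 and 0.033 for mir-181d, and stress in dHC between -0.042 and 0.11 for mir-181c. The regional ratio in swim mice lay between -0.10 and 0.010 for cluster 1 to 3 and -0.11 and 0.0079 for cluster 2 to 3. Cluster 1 to 2 lay between -0.0027 and 0.0043 for stress in vHC and -0.00044 and 0.0045 in dHC. Each library has its own number, but 12 vHC libraries are followed by a dHC library of the same condition and block. The labels do not say that such neighbours share a mouse, and their deviations from the fitted means correlated between -0.45 and 0.36 (median -0.02, across entries), with 1 of 12 vHC libraries most like its own neighbour. With a replicate block of these 12 pairs (added after the data were seen, 24 libraries), 3 members passed for region in control mice (mir-181a-1, mir-181a-2 and mir-181c, edgeR adjusted p = 0.045, 0.048 and 0.015), against 23.2% of all entries, and 0 in swim mice, against 26.2%. The same 24 libraries unpaired gave 1, against 21.5% of all entries, and 0, against 22.4%.

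Summing copies, or copies with mir-181d added to the mir-181b entries (added after the data were seen), changed no call on region or stress. However, mir-181d together with mir-181b was not called between blocks 3 and 1 (edgeR adjusted p = 0.054). In neither case was mir-181c summed with the mir-181a entries, so its calls were not put to this check. The shallowest library, control dHC 24, had 314 counts of mir-181c, and the intervals express the spread between libraries.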

Other observations

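The small gap between the copies differed in size between blocks. mir-181b-2 exceeded mir-181b-1 by 2.59% ± 0.727 (SD, n = 10) of its count in block 1, by 5.03% ± 0.702 (n = 8) in block 2 and by 4.98% ± 0.449 (n = 8) in block 3, and every block 1 value (highest 3.80%) was below every value of the other blocks (lowest 3.99%). For mir-181a-1 over mir-181a-2 the gap was 2.53% ± 0.516, 3.82% ± 0.987 and 3.47% ± 0.437. Control vHC library 1 had the highest mir-181b gap of block 1, 3.80%, and the lowest mir-181a gap, 2.09%.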
